A study of Homo sapiens with 6 samples.

Results

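The 10 genes described here encode transcription factors that mark carcinomas of ovarian and tubal origin (PAX8, WT1, SOX17, EMX2, MECOM and ESR1) and antigens by which such tumours are detected or targeted (MUC16, MSLN, WFDC2 and FOLR1). The members are all probe sets whose single gene symbol in the array's annotation is one of these, 34 of 54613 probe sets on the array, or 10 of 19775 genes. The samples were total RNA of the human ovarian cancer lines Caov-3 and SKOV-3, on 6 Affymetrix arrays of the U133 Plus type. A culture of each line received no treatment, interleukin-6 (IL-6, a cytokine that signals through gp130 and STAT3) at 30 ng/ml for 1 h, or the IL-6-neutralising antibody siltuximab (CNTO328) for 4 h followed by the same IL-6 treatment. Each of these 6 groups was 1 array, hybridised with RNA pooled from 3 flasks, and each line is the descendant of 1 tumour. The 3 arrays of a line are therefore 3 treatments, not replicate lines, and the precision of every value is limited by this small number of arrays.

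In the epithelium of the fallopian tube and the rest of the Müllerian tract, PAX8 and EMX2 act in development and PAX8 stays on in the adult cells, where SOX17 is a partner of it. WT1 and the oestrogen receptor ESR1 are used beside PAX8 by pathologists to recognise serous carcinoma. MUC16 is the mucin that carries the CA125 antigen, mesothelin (MSLN) is a membrane protein that binds it, WFDC2 is the secreted serum marker HE4, and FOLR1 is folate receptor alpha, a target of antibody-drug conjugates.

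All arrays had been scaled to one level, with trimmed means of 500.06 to 500.07 (2% cut from both tails), and array medians ran from 72.6 to 89.6. The Caov-3 IL-6 array stood apart in the beta-actin and 28S control probe sets, but not in those of GAPDH. Its 5' to 3' signal ratio of beta-actin was 0.494 against 0.643 to 0.767 on the other 5 arrays. Its 28S ribosomal RNA signal (middle probe set) was 887 against 2382 to 3307. The GAPDH 5' to 3' ratio of this array was 1.053, within the 0.957 to 1.066 of the others. Line differences of the leading probe sets and counts of calls are also given without the Caov-3 IL-6 array. The epithelial keratins KRT8 and KRT18 were bright in both lines (lowest signal 7079 for KRT8 and 25102 for KRT18), whereas E-cadherin (CDH1) was at 11.0 to 27.5 in SKOV-3 and 4763 to 5094 in Caov-3. PTPRC, the common leukocyte antigen, had a highest signal of 34.9 on the SKOV-3 arrays and 35.1 on those of Caov-3. Of the other leukocyte genes read, CD14 was at 77.6 to 135 in SKOV-3 and 573 to 667 in Caov-3. LAPTM5 was at 319 or more in SKOV-3 and 5.26 to 52.7 in Caov-3. CD79A was above the median of every array, at 180 to 344 in SKOV-3 and 149 to 201 in Caov-3. LCP1 was at 50.8 to 170 in SKOV-3 and 37.2 to 87.6 in Caov-3, and CD3E and CSF1R were at 83.9 or less.

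The first comparison set Caov-3 against SKOV-3. MSLN, WFDC2 and MUC16 were far higher in Caov-3, MECOM was far higher in SKOV-3, ESR1, SOX17 and PAX8 were higher in Caov-3 by smaller steps, and WT1 and EMX2 lay under the array median on all 6 arrays. Line differences were estimated with limma on log2 signals, with treatment as a block, and p-values were adjusted by the Benjamini-Hochberg method over all 54613 probe sets. A difference with an adjusted p under 0.05 was called. Of the 34 member probe sets, 10 were called higher in Caov-3 and 2 higher in SKOV-3, together 35.3% of them, where 30.5% of all probe sets were called (15.6% higher in Caov-3 and 14.8% higher in SKOV-3). The share called is thus near that of the whole array. The sizes were larger, as 6 of the 34 differed at least 8-fold (on the scale of log2 signals with 17.06 added, used throughout) and 2.36% of all probe sets did. The 6 include both called probe sets of MECOM. The members were chosen with earlier results of these data known, so this larger share is a description and not a test. With the median signal added in place of 17.06, 2 of the 34 reached 8-fold (MSLN and the leading probe set of WFDC2), and 0.879% of all probe sets did. With 1 added, 7 members and 4.21% did, so that a fold against signals near the bottom of the scale is set in part by the value added. The arrays of the lines did not overlap for 15 of the 34 (44.1%), and for 44.1% of all probe sets. By leading probe set, the one of highest mean log2 signal over the 6 arrays, they did not overlap for 7 of the 10 genes, and for 53.1% of all genes. RNA was taken from whole cultures, so that fewer expressing cells and less RNA per cell cannot be told apart.

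**Figure D1:**
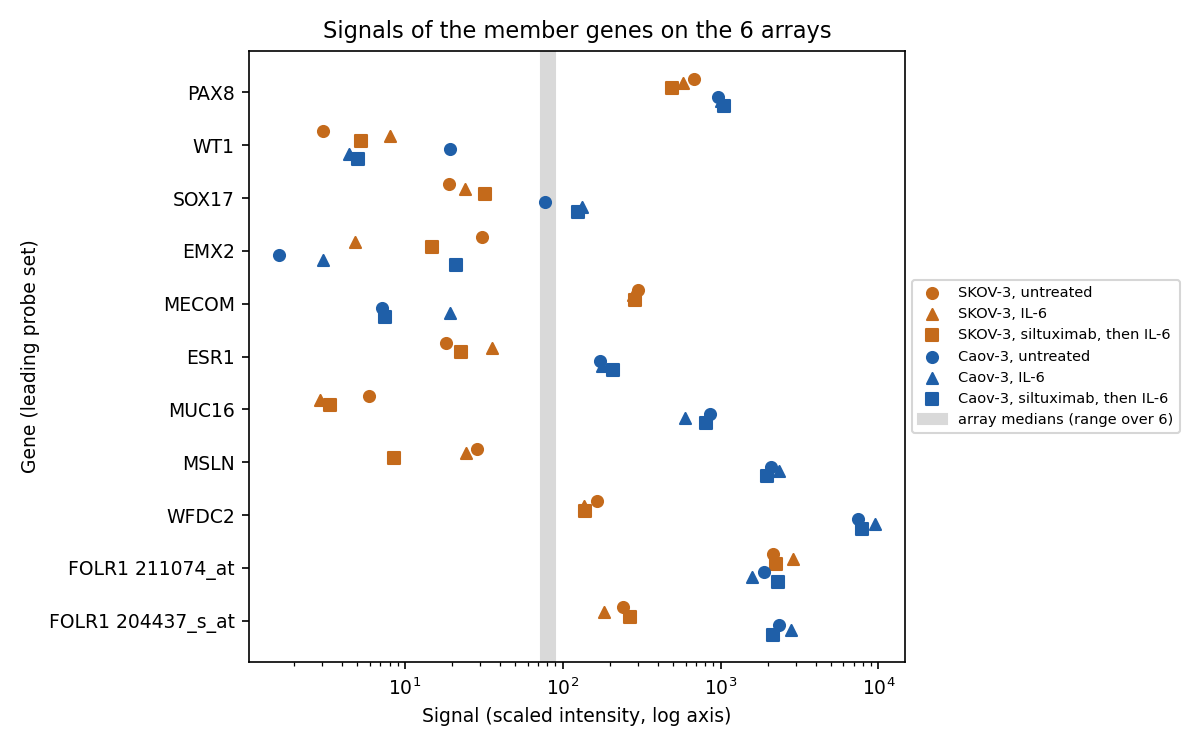
Signals of the leading probe set of each member gene (both probe sets for FOLR1) on the 6 arrays, on a logarithmic axis, with orange points for SKOV-3, blue points for Caov-3 and one marker shape per treatment. The grey band spans the medians of the 6 arrays (72.6 to 89.6), and MUC16, MSLN and ESR1 cross it from SKOV-3 to Caov-3 while MECOM crosses it the other way.

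Among the antigens, MUC16 had 1 probe set (220196_at), whose SKOV-3 signals were 5.90 untreated, 2.92 after IL-6 and 3.34 after siltuximab plus IL-6. In Caov-3 it stood at 860, 593 and 806 in the same order. The mucin transcript was thus among the lowest signals of every SKOV-3 array (highest percentile 9.20) and at percentiles 78.9 to 83.0 in Caov-3, with no overlap. The log2 difference was 5.17 (SE 0.274, limma adjusted p 5.4e-05, 3 arrays a line), a 36.1-fold difference, which 0.405% of probe sets exceeded. Because the SKOV-3 signals are at the bottom of the scale, its size depends on the pseudocount, at 2.89 with the median signal added and 7.25 with 1 added.

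MSLN, also with 1 probe set (204885_s_at), was at 28.5, 24.5 and 8.56 in SKOV-3 (untreated, IL-6, siltuximab and IL-6). In Caov-3 its signals were 2088, 2332 and 1961. Mesothelin thus showed the same split as its binding partner MUC16, low on all 3 SKOV-3 arrays and high on all 3 of Caov-3. The log2 difference of 5.87 (SE 0.207, limma adjusted p 1.5e-05) was the largest of the 34 on this scale, a 58.7-fold difference. With the median signal added it was 4.09 and WFDC2 was larger, and with 1 added it was 6.78 and MUC16 was larger.

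WFDC2 was measured by 3 probe sets, and all were higher in Caov-3. Its leading probe set (203892_at, the one of highest mean log2 signal) was at 165, 137 and 139 in SKOV-3, against 7435, 9480 and 7872 in Caov-3. Unlike MUC16 and MSLN, HE4 transcript was therefore above the array median in both lines, at percentiles 58.4 to 61.3 in SKOV-3 and 97.9 to 98.4 in Caov-3. The log2 difference was 5.65 (SE 0.133, limma adjusted p 6.1e-06), or 50.3-fold. The other two probe sets differed by 2.76 (1553089_a_at, SE 0.395, limma adjusted p 0.00263) and 2.44 (1552261_at, SE 0.320, limma adjusted p 0.00180). Their SKOV-3 signals scattered from 4.33 to 70.8 and from 18.4 to 61.2, under the array median, and the mean of the 3 probe sets differed by 3.62.

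FOLR1 gave different answers from its pair of probe sets. The leading one (211074_at) was at 2158, 2888 and 2244 in SKOV-3, against 1890, 1587 and 2300 in Caov-3. The lines overlapped there, with a log2 difference of -0.34 (SE 0.171, limma adjusted p 0.209). The second (204437_s_at) was at 242, 182 and 266 in SKOV-3, against 2358, 2813 and 2149 in Caov-3. On that probe set the folate receptor was higher in Caov-3, by 3.32 on the log2 scale (SE 0.184, limma adjusted p 6.3e-05), or 9.98-fold, without overlap. Both were bright in both lines, and which of them follows the FOLR1 messenger RNA was not tested. The mean of both differed by 1.49 (limma adjusted p 7.1e-05), so that the direction for FOLR1 depends on the probe set.

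Among the transcription factors, PAX8 was the one above the array median on all 6 arrays. Its leading probe set (121_at) was at 683, 574 and 495 in SKOV-3 (584 ± 94.0, SD, n = 3), against 971, 1009 and 1056 in Caov-3 (1012 ± 42.6, SD, n = 3). Every Caov-3 array was above every SKOV-3 array, and the log2 difference was 0.79 (SE 0.140, limma adjusted p 0.00669), a 1.72-fold difference. The call was lost without the SKOV-3 siltuximab array (0.65, limma adjusted p 0.0590), without the Caov-3 siltuximab array (0.65, 0.0659) and without a trend in the prior variance (0.79, 0.0519). All 7 other PAX8 probe sets also had a higher mean log2 signal in Caov-3, by 0.06 to 1.28, and 0 of them was called. They were dim, most of them near or under the array median, with the next brightest (209552_at) at 142, 50.7 and 109 in SKOV-3 and 190, 236 and 182 in Caov-3.

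SOX17, which binds DNA together with PAX8 in these tumours, was at 19.2, 23.9 and 32.0 in SKOV-3, against 77.8, 132 and 126 in Caov-3 on its leading probe set (219993_at). Its signals were low in SKOV-3 and around the array median in Caov-3, with no overlap. The log2 difference was 1.60 (SE 0.333, limma adjusted p 0.0127). A second probe set (230943_at), at 38.2, 7.03 and 1.31 in SKOV-3 and 55.3, 78.2 and 81.7 in Caov-3, also differed by 1.60 (SE 0.475, limma adjusted p 0.0478). The call of the leading probe set was lost without the SKOV-3 siltuximab array (limma adjusted p 0.0739) or the Caov-3 siltuximab array (0.0762), and the difference was 0.70 with the median signal as pseudocount.

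MECOM, whose products include the zinc finger factor EVI1 and which is often gained in serous carcinoma, was the one member called higher in SKOV-3. The leading probe set (221884_at) was at 302, 279 and 288 in SKOV-3 (290 ± 11.4, SD, n = 3), against 7.14, 19.3 and 7.44 in Caov-3. A second (226420_at) was at 272, 288 and 243 in SKOV-3, against 5.26, 21.6 and 3.08 in Caov-3. Both showed the same split, with log2 differences of -3.46 (SE 0.328, limma adjusted p 0.000475) and -3.46 (SE 0.339, limma adjusted p 0.000546), or 11.0-fold each on this scale. Since the Caov-3 signals are at the bottom of the scale, the differences were -1.71 and -1.65 with the median signal added, and -4.70 and -5.01 with 1 added. The other 3 probe sets of MECOM (215851_at, 208434_at and 243277_x_at) were under the array median on every array and not called, and with the mean of all 5 the difference was -1.56 (limma adjusted p 0.00270).

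ESR1 was covered by 9 probe sets, of which 1 was called. The leading one (205225_at) was at 18.2, 35.6 and 22.6 in SKOV-3, against 172, 178 and 207 in Caov-3. On this probe set the oestrogen receptor transcript was thus under the array median on all SKOV-3 arrays and above it on all Caov-3 arrays. The log2 difference was 2.27 (SE 0.323, limma adjusted p 0.00257), or 4.83-fold. With the median signal added the difference was 1.12. The other 8 probe sets stayed at or under 88.8 on every array, with differences of -0.73 to 0.83. Of these, 215551_at was at or above the array median on 2 SKOV-3 arrays and 211235_s_at on 1, and neither on any Caov-3 array. The mean of all 9 differed by 0.28 (limma adjusted p 0.447).

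WT1 and EMX2 had low signals in both lines. WT1 was at 3.05, 8.05 and 5.29 in SKOV-3, against 19.3, 4.43 and 5.02 in Caov-3 on its leading probe set (206067_s_at), with percentiles of 22.6 or less on all 6 arrays. Its line difference of 0.20 (SE 0.279, limma adjusted p 0.657) turned to -0.12 when either untreated array was left out. The second probe set of WT1 (216953_s_at) had no signal above 4.78 on any array and differed by -0.08. EMX2, with 1 probe set (221950_at), was at 31.0, 4.80 and 14.9 in SKOV-3, against 1.60, 3.02 and 21.1 in Caov-3, a difference of -0.41 (SE 0.362, limma adjusted p 0.473). The lines overlapped for both genes, and a transcript at such signals cannot be told from background here, since no detection calls were used. Altogether 12 of the 34 probe sets were under the median on all 6 arrays, and 0 of these was called. The same counts over the whole array were not taken, so neither is read as a trait of the members.

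**Figure D2:**
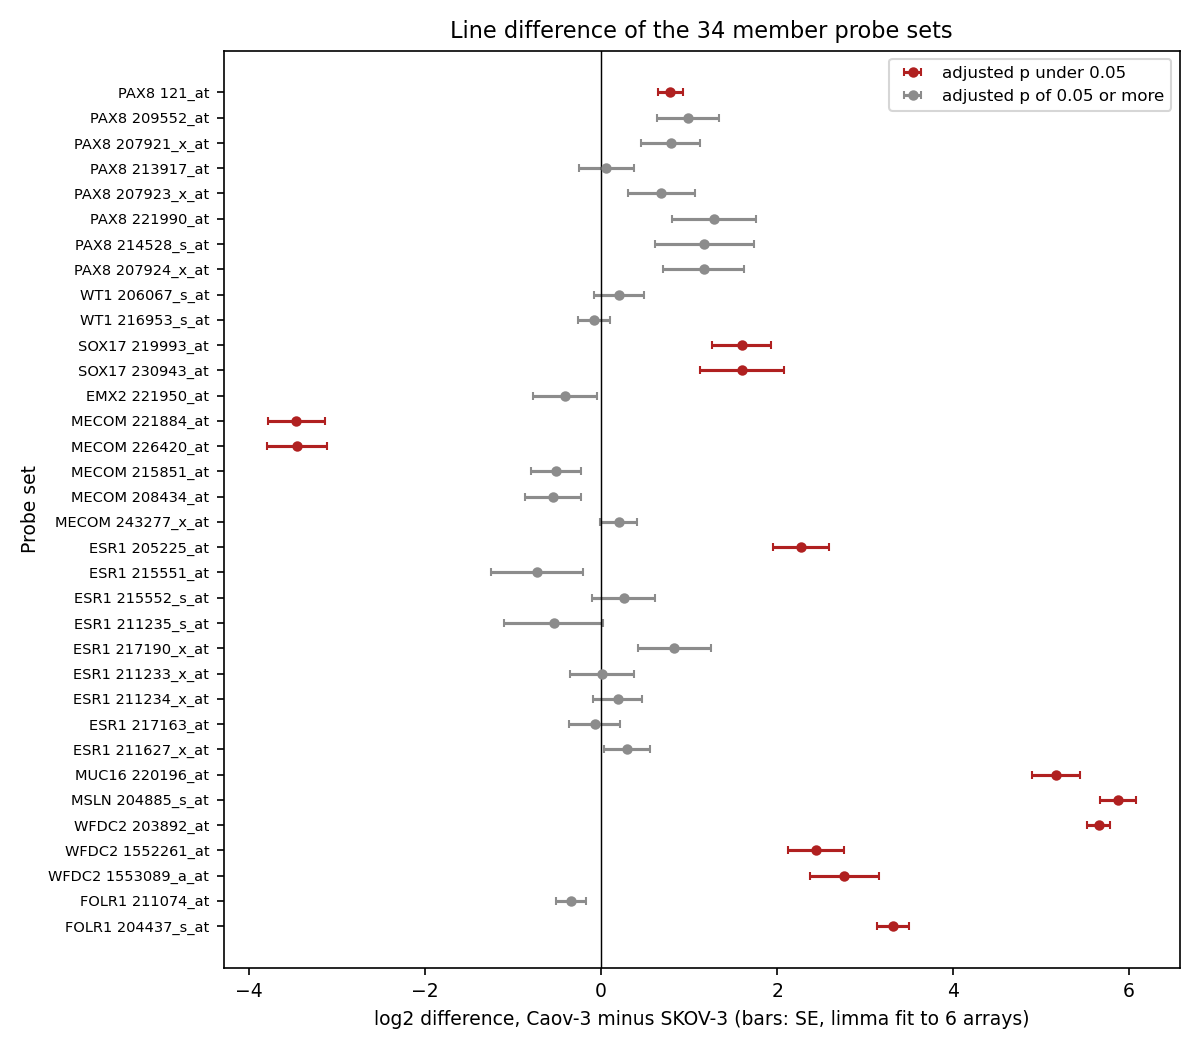
Line difference of each of the 34 member probe sets on the log2 scale, Caov-3 minus SKOV-3, with bars for the standard error of the limma fit to 6 arrays and red points for an adjusted p under 0.05. The 4 probe sets furthest to the right belong to MSLN (5.87), WFDC2 (5.65), MUC16 (5.17) and FOLR1 (3.32), and both points near -3.46 belong to MECOM.

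Leaving out the Caov-3 IL-6 array, 13 member probe sets were called, of which 11 were among the 12 of all arrays. The one lost was the second probe set of SOX17, and both gained were dim probe sets of PAX8 (214528_s_at and 207924_x_at). The fit then has only the untreated and the siltuximab arrays to compare the lines, since treatment is a block. The log2 differences of the leading probe sets were then 5.90 for MSLN, 5.51 for WFDC2, 5.29 for MUC16, 2.46 for ESR1, 1.47 for SOX17, 0.78 for PAX8, 0.42 for WT1, -0.08 for FOLR1 (3.07 on its second probe set), -0.55 for EMX2 and -3.68 for MECOM. With all arrays, by leading probe set, 6 of the 10 genes were higher in Caov-3 and 1 in SKOV-3, where 22.8% and 18.1% of all 19775 genes were (40.9% either way). The median log2 difference of the 10 genes, chosen with earlier results of these data known, was 1.19, against 0.06 over all genes.

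The sequence just upstream of the gene start was read for the members in RefSeq's promoter table (GRCh38.p14), which matched 7 of the 10 genes (PAX8, WT1, EMX2, MECOM, ESR1, MUC16 and WFDC2). MUC16 and WFDC2, the pair among these that was highest in Caov-3 over SKOV-3, and MECOM, which was high in SKOV-3, are shown, each as the 250 bases before the start, 5' to 3' along the gene. Capitals mark the GC box, GGGCGG on either strand, a site of SP1-type activators. WFDC2 lies on the plus strand at chr20:45469503-45469752, MUC16 on the minus strand at chr19:9065752-9066001, and MECOM on the minus strand at chr3:169663713-169663962.
WFDC2: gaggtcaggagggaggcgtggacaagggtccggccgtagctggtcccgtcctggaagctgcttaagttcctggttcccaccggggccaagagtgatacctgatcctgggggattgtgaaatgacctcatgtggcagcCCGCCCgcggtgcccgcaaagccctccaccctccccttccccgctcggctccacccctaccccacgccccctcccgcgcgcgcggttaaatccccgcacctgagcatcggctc
MUC16: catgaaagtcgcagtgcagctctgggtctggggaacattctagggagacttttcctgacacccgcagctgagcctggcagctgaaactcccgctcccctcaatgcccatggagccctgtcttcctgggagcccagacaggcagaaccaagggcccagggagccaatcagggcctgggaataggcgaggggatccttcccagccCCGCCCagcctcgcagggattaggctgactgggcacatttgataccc
MECOM: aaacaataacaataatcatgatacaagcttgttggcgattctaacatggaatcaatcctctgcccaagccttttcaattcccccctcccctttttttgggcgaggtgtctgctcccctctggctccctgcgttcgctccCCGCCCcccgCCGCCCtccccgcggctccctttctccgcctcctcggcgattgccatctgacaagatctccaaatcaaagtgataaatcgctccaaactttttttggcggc

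The windows differed in composition, with a GC content of 67.2% and 19 CpG for WFDC2, 61.6% and 6 CpG for MUC16, and 53.6% and 14 CpG for MECOM. The median over 27305 promoters was 58% and 11 CpG. ESR1, whose listed start has an AT-rich window, had a GC content of 36% and 3 CpG, with 6.99% of promoters lower. A GC box was found in 5 of the 7 members and in 42.3% of all promoters of this length. The first base of the box lay 113 bases before the start in WFDC2, 47 in MUC16, and 111 and 101 in MECOM. The STAT motif TTCNNNGAA, the kind of site bound by the factor downstream of IL-6, was in 0 of the 7 windows and in 6.78% of all. GGTCA, the half-site of oestrogen receptors, was in 1 of the 7 (WFDC2, with 2 matches) and in 33.1% of all. The E-box CANNTG was in 6 of the 7 and in 62.2% of all, CCAAT in 4 of the 7 and in 33.0%, and TATAAA in 0 of the 7 and in 11.1%. Each motif was searched on both strands, matches of different motifs may overlap, and a match is a description of letters, not of a bound site. Each gene was read at a single listed start, and whether the measured transcripts begin there was not tested.

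The second question was whether IL-6, or siltuximab before IL-6, changed these genes. Where members were at or above the array median on all 3 arrays of a line, their signals differed less than 2-fold between its 3 treatments. MUC16 in Caov-3 was at a log2 fold of -0.52 with IL-6 over untreated and 0.43 with siltuximab and IL-6 over IL-6. FOLR1 in SKOV-3 was at 0.42 and -0.36 on its leading probe set and at -0.38 and 0.51 on its second one. In Caov-3 each of these signs was the other way, at -0.25 and 0.53 on the leading probe set and at 0.25 and -0.39 on the second. In each of these the IL-6 array held the lowest or the highest of the 3 signals of the line. For PAX8 the folds were -0.24 and -0.21 in SKOV-3, with 0.05 and 0.06 for Caov-3. WFDC2 gave -0.24 and 0.02 in SKOV-3, with 0.35 and -0.27 for Caov-3. MSLN in Caov-3 was at 0.16 and -0.25, and MECOM in SKOV-3 at -0.11 and 0.04. These are ratios of 1 array to 1 array, which share arrays with each other and carry no test.

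In SKOV-3, 6 member probe sets of 4 genes were at or above the array median on all 3 arrays of the line, and 0 of them was 2-fold apart in any of 3 comparisons, where 0.961% of the 24871 probe sets of that brightness were for IL-6 over untreated, 0.434% for siltuximab and IL-6 over IL-6, and 0.487% for siltuximab and IL-6 over untreated. In Caov-3 the same held for 11 probe sets of 6 genes, against 6.02%, 4.96% and 0.383% of 24278. The higher percentages of Caov-3 belong to both comparisons that use its IL-6 array, and the comparison without it gave member folds of -0.49 (WFDC2, 1553089_a_at) to 0.28 (FOLR1). With shares this low over the array, 0 of 6 and 0 of 11 is near what all probe sets of that brightness gave. A probe set that fell under the median on 1 array of the line is left out, which favours small folds for members and all probe sets alike.

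Over all 34 probe sets, 7 were at least 2-fold apart in SKOV-3 with IL-6 over untreated (10% of all probe sets), 3 with siltuximab and IL-6 over IL-6 (7.54%), and 8 when comparing siltuximab and IL-6 over untreated (9.68%). In Caov-3 the counts were 4 (14.7%), 3 (13.2%) and 4 (9.44%). None of these had a signal over 142 on either array, though some were above the array median on 1 array. The brightest was PAX8 209552_at in SKOV-3, at 141.6 untreated (array median 83.7) and 50.7 with IL-6. Most were secondary probe sets of PAX8 and ESR1. The leading probe set was among them for 1 gene, EMX2, at -1.14 with IL-6 in SKOV-3 (31.0 to 4.80) and at 1.03 with siltuximab and IL-6 over untreated in Caov-3 (1.60 to 21.1). All of these counts fell to 0 with the median signal as pseudocount.

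In the limma fit over both lines, with the line as a block, 0 of the 34 probe sets was called for IL-6 over untreated (smallest adjusted p 0.756), for siltuximab and IL-6 over IL-6 (0.9999) or for siltuximab and IL-6 over untreated (0.985), and 0% of all probe sets were called in each. At an unadjusted p under 0.05 there were 0, 0 and 1 of the members, and 3643, 1745 and 2558 of 54613 probe sets. The fit has 2 residual degrees of freedom, and what it takes as error is how far the treatment effects of the lines differ. Without the Caov-3 IL-6 array it called 4 probe sets of the array for IL-6 over untreated and 0 members. Without the SKOV-3 IL-6 array, so that IL-6 rests on the Caov-3 array alone, it called 1843 probe sets for IL-6 over untreated and 1368 for siltuximab and IL-6 over IL-6, and 0 members in either.

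**Figure D3:**
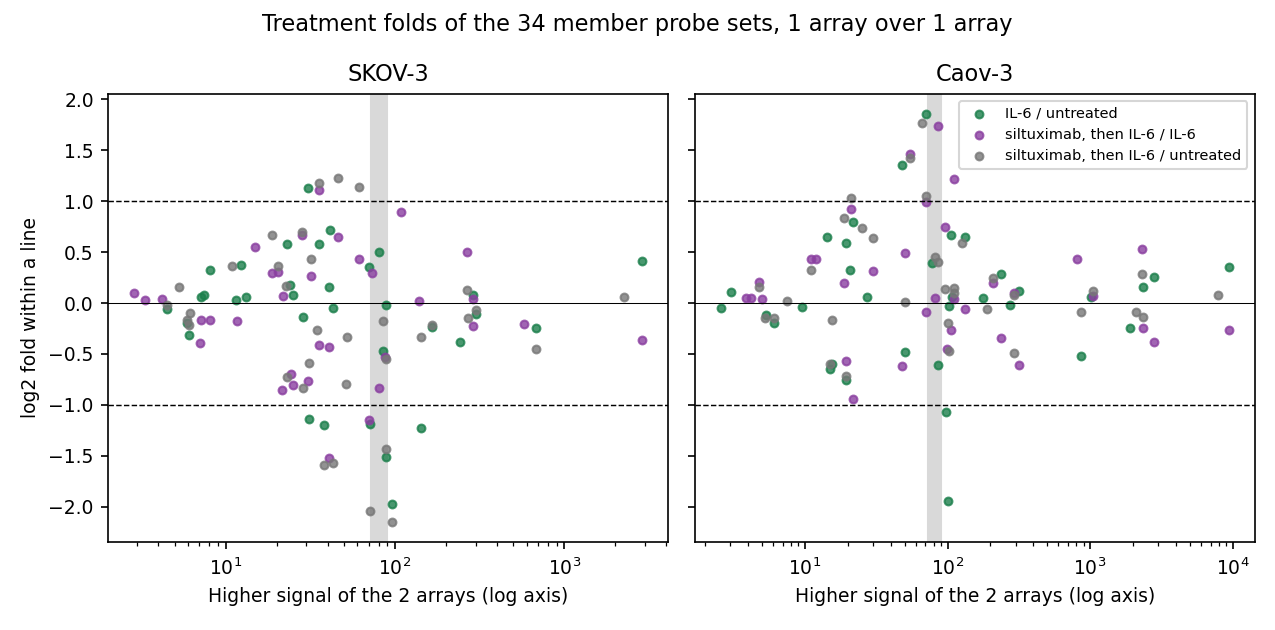
Log2 folds between treatments within SKOV-3 (left) and Caov-3 (right) for the 34 member probe sets, each 1 array over 1 array, against the higher of both signals on a logarithmic axis, with one colour per comparison. Dashed lines mark 2-fold, the grey band spans the array medians, and all points past 2-fold have signals of 142 or less.

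Related genes were read from lists in the same fit, each by its leading probe set. The lists were chosen with earlier results of these data known. Their counts stand beside the 22.8% of all genes called higher in Caov-3 and the 18.1% called higher in SKOV-3. They were not tested against these shares. Of 21 other surface and secreted antigens of ovarian carcinoma, 12 were higher in Caov-3 and 3 in SKOV-3, with a median log2 difference of 1.90 against 0.06 over all genes. MUC1, the membrane mucin with the CA15-3 antigen, was at 210 to 311 in SKOV-3 and 16391 to 17437 in Caov-3, a difference of 5.91. The cancer-testis antigen PRAME differed by 6.99, the matrix protein gene SPON1 by 6.19 and PI3, a protease inhibitor of the same WAP domain family as WFDC2, by 5.13. MUC4, another membrane mucin, stood the other way at -4.03, with 825 to 1250 in SKOV-3 and 25.8 to 59.0 in Caov-3, as did the retinoic acid carrier CRABP2 at -3.89 and the growth factor gene MDK at -1.59. Each of these 7 had an adjusted p under 0.05.

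Of 18 transcription factors of the reproductive tract and relatives of the SOX, PAX, EMX and PRDM members, 2 were higher in Caov-3 and 7 in SKOV-3, with a median of -0.14. GATA6 was at 674 to 699 in SKOV-3 and 1.45 to 7.29 in Caov-3 (log2 difference -5.06), and its relative GATA4 differed by -3.36. SOX9 differed by -2.50, and SOX7, of the same SOX subgroup as SOX17, by -1.71, opposite to SOX17. PRDM16, the closest relative of MECOM, also stood higher in SKOV-3, at 54.3 to 74.5 against 1.31 to 17.0 (log2 difference -1.83, SE 0.331, limma adjusted p 0.00706). FOXL2, a factor of granulosa cells, was at 1.89 to 10.1 in SKOV-3 and 204 to 312 in Caov-3 (3.62).

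Of 13 steroid receptors, cofactors and oestrogen target genes, 2 were higher in Caov-3 and 3 in SKOV-3, with a median of -0.05. The glucocorticoid receptor NR3C1 was higher in Caov-3 by 1.63 and the oestrogen-induced TFF1 by 1.27, while IGFBP4 (-2.89), CA12 (-2.21) and the corepressor gene NRIP1 (-1.34) were lower there. GREB1, an oestrogen target, was at 61.2 to 85.5 in SKOV-3 and 6.18 to 49.5 in Caov-3 and did not pass the test (-1.43, limma adjusted p 0.0670). The 5 of 13 called are near the 40.9% of all genes. Of 11 genes of folate uptake and metabolism, 3 were higher in Caov-3 and 4 in SKOV-3. The latter included the reduced folate carrier SLC19A1 (-1.57), SHMT2 (-1.12) and FPGS (-1.44), which adds glutamates to folates. Another folate carrier, SLC46A1, was among those higher in Caov-3 (0.63), and SHMT1 was not called (0.90).

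**Figure D4:**
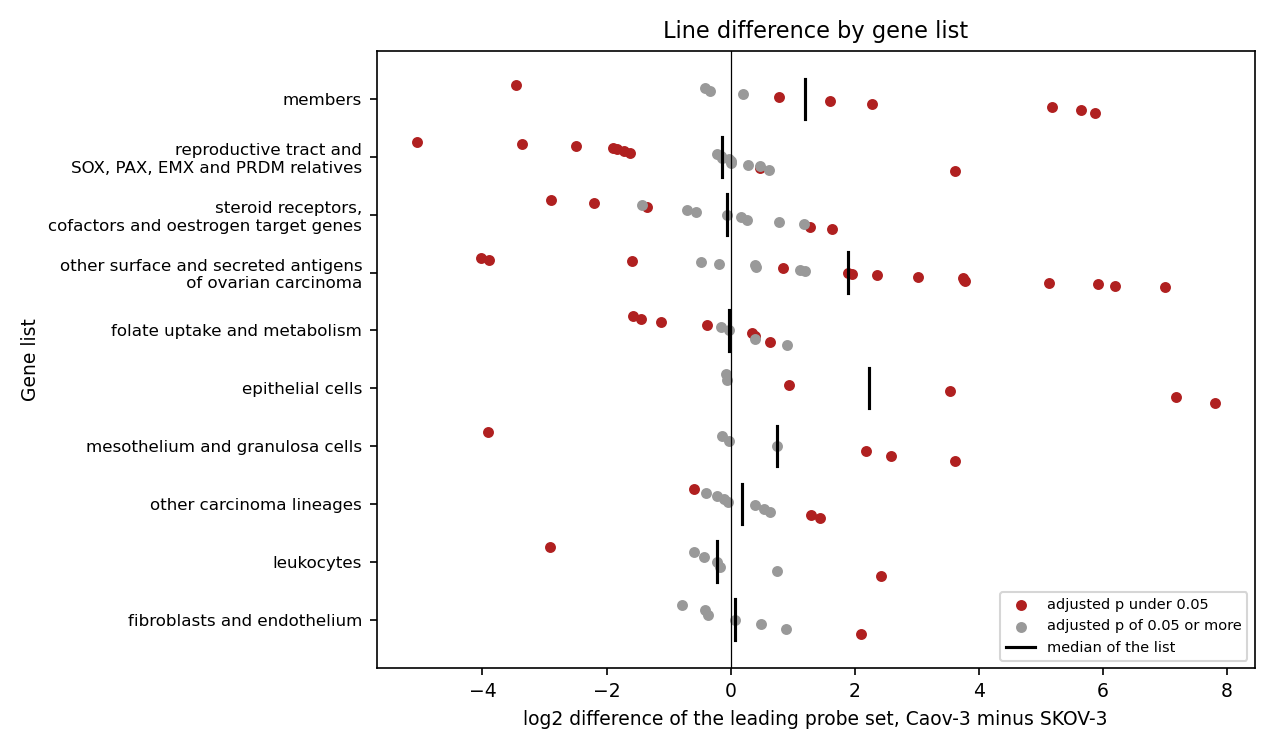
Log2 difference of the leading probe set of each gene, Caov-3 minus SKOV-3, for the 10 members and 9 further gene lists, with red points for an adjusted p under 0.05 and a black bar at the median of each list. The members (median 1.19), the other antigens (1.90) and the epithelial genes (2.24) have medians above 1, and the reproductive tract factors have one of -0.14.

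The genes whose levels over the 6 arrays were most like those of a member were sought for the member with the largest difference each way. For MSLN they were SMIM22 (Pearson r = 0.9998), RIMKLB (0.9997) and EIF4E3 (0.9997) among 9888 genes of at least median signal. For MECOM they were PHLDB2 (0.9997), LYRM4 (0.9996) and NAT10 (0.9996). The 6 points fall into one cluster per line, so that r states mainly the line difference, and 725 genes for MSLN and 686 for MECOM had an r of at least 0.99.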

How the data were processed

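The deposited table holds 1 signal intensity per probe set and array, linear in scale. Per the submitters' processing notes, the tools were MAS5 and Affymetrix Expression Console, with no version stated. RNA of 3 flasks was pooled per array, per the labels' protocols. Groups were taken from the sample titles. The labels used here state no siltuximab dose.

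Of 54675 probe sets, 62 array controls were left out. The platform annotation gave 41091 of the rest a single symbol, 1801 several and 11721 none, and all 34 member probe sets matched a current RefSeq gene record by identifier. Signals were taken to log2 after adding 17.06, the 20th percentile of all deposited values with a single symbol. The log2 differences understate the change of dim probe sets. No filter on low signal was applied, and 18 of the 34 would have passed one asking for 2 arrays at or above their median.

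All 54613 probe sets were fitted with limma 3.58.1 (R 4.3.3), with terms for treatment and line and a prior variance that follows mean signal. The fit was tested on simulated data. An exact permutation test of 3 arrays against 3 cannot go below 0.1 and was not used. The arrays of a line may share handling, and the p-values measure only the spread between these arrays.

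The members and gene lists were chosen with earlier results of these data known. By rule, each member gene was led by its probe set of highest mean log2 signal with its other probe sets beside it (here in part by their range), and up to 4 genes a list with the largest line difference were named. KRT8, KRT18, SOX7, PRDM16, TFF1, NRIP1, MUC4, CRABP2 and MDK fall outside this rule and were named after their values were seen. The same holds for CD79A, CD3E, CSF1R, KLK3, SFTPB, LRRN4 and SLC46A1. The genes most alike in pattern were the 3 of highest Pearson r over the 6 arrays. Alternatives were other pseudocounts, filters, scalings and priors, no treatment block, other probe sets of a gene, and each array left out. Other steps used Python 3.11.15, pandas 2.3.3, numpy 2.4.6 and matplotlib 3.10.9.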

Additional observations from a re-analysis of the deposited data

Results flagged for a closer look

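A pair of dim probe sets moved at least 2-fold one way in SKOV-3 and at least 2-fold the other way in Caov-3, each on 1 array over 1 array, and the difference between the lines was not tested. PAX8 probe set 214528_s_at had a log2 fold of siltuximab and IL-6 over IL-6 of -1.52 in SKOV-3 (40.8 to 3.07) and 1.22 in Caov-3 (37.6 to 110.5), which makes SKOV-3 minus Caov-3 -2.74. The Caov-3 fold uses the IL-6 array with the low beta-actin ratio, and without that array, as siltuximab and IL-6 over untreated, the probe set was at 0.15 in Caov-3 and -1.57 in SKOV-3. ESR1 probe set 211235_s_at had a log2 fold of siltuximab and IL-6 over untreated of -1.44 in SKOV-3 (88.3 to 21.9) and 1.43 in Caov-3 (9.54 to 54.5), which makes SKOV-3 minus Caov-3 -2.86. The leading probe sets of both genes stayed within 0.24 on the log2 scale for the same comparisons.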

How the results depend on the processing

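The number of member probe sets called between the lines was 12, and 9 to 13 with 1 array left out. It was 7 with a filter on the mean at or above the median, under which 9 of the 34 were tested and both probe sets of MECOM, both of SOX17 and the one of ESR1 dropped out. All probe sets called were 16630, and 10717 to 17549 with 1 array left out. Genes whose leading probe set did not overlap between the lines were 7 of 10, where 53.1% of all genes did not overlap. With 1 array left out they were 7 to 9, and with the filter on the mean 4. The share over all genes was not counted under these alternatives, and fewer arrays make overlap less likely for any gene. The member calls for each treatment comparison over both lines stayed at 0 under every alternative, and at 0 to 0 with 1 array left out. Over all probe sets, the calls with 1 array left out were 0 to 1843 for IL-6 over untreated, 0 to 1368 for siltuximab and IL-6 over IL-6 (both highest without the SKOV-3 IL-6 array) and 0 to 3 for siltuximab and IL-6 over untreated, against 0 with all arrays. Members at least 8-fold apart between the lines were 6, and 2 with the median as pseudocount. Members at least 2-fold apart within a line, 7, 3 and 8 in SKOV-3 and 4, 3 and 4 in Caov-3, became 0 in all 6 comparisons with the median as pseudocount. With a pseudocount of 1 they became 12, 12 and 15 in SKOV-3 and 10, 10 and 9 in Caov-3. Signals near the bottom of the scale thus limit these counts. The line difference reversed for WT1, at -0.12 without either untreated array (-0.12 to 0.42 with 1 array left out), for EMX2, at 0.066 without either untreated array (-0.74 to 0.066), and for FOLR1, to 1.49 with the mean of its probe sets, whose second probe set differs by 3.32. The treatment block pairs the arrays of the lines by treatment, and without it 17744 probe sets and 12 members were called. By replicate number, no paired analysis was possible because each group is 1 array and the labels carry no such numbers. With the treatment as a block, leaving out either array of a treatment gives the same line difference.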

Other observations

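Markers of other tissues were read in the same fit to set beside the lineage genes. Over all genes, 22.8% were called higher in Caov-3 and 18.1% in SKOV-3 (40.9% either way). The counts of the lists here and in the next paragraph were not tested against those shares. Of 7 genes of mesothelium and granulosa cells, 3 were higher in Caov-3 and 1 in SKOV-3. Calretinin (CALB2), a calcium-binding protein of mesothelium, was at 770 to 1040 in SKOV-3 and 23.2 to 64.8 in Caov-3 (log2 difference -3.90). The other mesothelial genes did not share this direction, as UPK3B was higher in Caov-3 (2.58) and LRRN4 was not called (-0.02). Inhibin alpha (INHA, 2.18) and FOXL2 (3.62), read for granulosa cells, were higher in Caov-3. Of 10 genes of other carcinoma lineages and of melanocytes, 2 were higher in Caov-3 and 1 in SKOV-3. Those higher in Caov-3 were the melanocyte factor MITF (1.30) and the lung and thyroid factor NKX2-1 (1.43, at 74.7 to 119 in Caov-3). The one higher in SKOV-3 was TRPS1 (-0.60). KLK3 (273 to 357) and SFTPB (177 to 290) were above the median of every array in both lines and were not called.

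Of 6 epithelial genes, 4 were higher in Caov-3, with KRT19 at 4.37 to 57.9 in SKOV-3 and 7263 to 7936 in Caov-3 (7.80) and EPCAM at 1728 to 2223 and 22113 to 23634 (3.54). Of 7 leukocyte genes, CD14 was higher in Caov-3 (2.43) and LAPTM5 in SKOV-3 (-2.91), with summed signals of 784 to 1172 in SKOV-3 and 960 to 1106 in Caov-3. Of 7 genes of fibroblasts and endothelium, 5 were under the array median on all 6 arrays. PECAM1, by its leading probe set, was higher in Caov-3 (2.09), at 331 to 1162 there and 125 to 176 in SKOV-3. It was above the median of every array in both lines. The part of these in the differences of the members was not tested.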
